A study of Mus musculus with 12 samples.

Results

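The nuclear genes of the oxidative phosphorylation subunits were examined in bulk RNA-Seq of the mouse dorsal raphe (DR). They were taken by symbol: every listed gene whose name begins with Ndufa, Ndufb, Ndufc, Ndufs, Ndufv, Uqcr, Cox4 to Cox8 or Atp5, with Sdha to Sdhd, Cyc1 and Cycs, but without Ndufa4l2 and the Ndufaf assembly factors. The rule found 86 of the 24421 genes listed, and 82 of these were among the 15453 genes that passed the filter on low counts and were tested. Complex I held 36 of them, complex II 4, complex III with cytochrome c 10, complex IV 19 and complex V 15. The rule also took Atp5s and Atp5sl, which share the name but are not subunits, and these 2 stay in the counts and medians over all 82 genes but in none of those by complex. Counts of subunit genes below keep Cycs, an electron carrier, and Cox7a2l, a supercomplex factor.

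RNA came from 4 controls, Sert Cre/+; Stat3 fl/+, and 8 STAT3 KO littermates, Sert Cre/+; Stat3 fl/fl, of a C57BL/6 x 129 background, with 1 library per animal. Each sex gave 2 controls and 4 STAT3 KO mice, and animals of the study were 8 to 16 weeks old when experiments began. All 12 animals carried Cre at the serotonin transporter gene Slc6a4, and the controls also carried 1 floxed Stat3 allele. Cre is driven by Slc6a4, so recombination was aimed at SERT-expressing cells, while the dissected square below the aqueduct also holds glia, vessels and other neurons. Animals are given by genotype and the number in the library's title.

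Oxidative phosphorylation is the last stage of aerobic ATP production. Complexes I and II pass electrons from NADH and succinate to ubiquinone, complex III passes them on to cytochrome c, complex IV reduces oxygen, and complex V, the ATP synthase, uses the proton gradient built by complexes I, III and IV. Neurons depend heavily on this pathway, and STAT3 has been linked to it through GRIM-19, the complex I subunit encoded by Ndufa13, which was also described as a STAT3-binding protein. The subunits encoded by mitochondrial DNA were not analysed here, since 0 of the 13 genes appear in the count lists.

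Counting depth was 24379588 to 29645210 counts on genes per library, and 3 counts, the smallest level taken as measurable, equalled 0.101 to 0.123 CPM (TMM-scaled CPM is used throughout), a floor for counting error only. Stat3 was read at 64.7, 66.2, 68.0 and 67.7 CPM in controls 13, 4, 3 and 11, and at 62.7 to 70.1 CPM (median 66.4) in STAT3 KO mice, so the genotypes overlapped (log2 fold change -0.0077, SE 0.039, edgeR adjusted p = 0.992). These counts cover the whole gene and do not resolve the deleted exons 18 to 20, so they check no label. Serotonergic markers summed to 1337 to 1996 CPM over the 12 animals. Other markers set 3 libraries apart: choroid plexus genes summed to 221 CPM in STAT3 KO 16 and 228 in STAT3 KO 8 against 8.3 to 13.1 elsewhere, and forebrain neuron genes to 358 CPM in control 4 against 90.8 to 160. Cerebellar neuron markers were also highest in STAT3 KO 16 (686 CPM), with 391 in STAT3 KO 10, 294 in control 3 and 152 to 236 in the other 9 animals.

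Of the 86 genes, 71 had a promoter entry in RefSeq (GRCm38.p6, 250 bases before to 50 after each gene start, 77 entries, 3 genes found under a newer symbol). Entries were searched on both strands for 4 letter patterns. The pattern of nuclear respiratory factor 1 (NRF1), the palindrome GCGCATGCGC made of the half-site GCGCA and its reverse complement, was in 5 genes (6.49% of the 77 entries, against 0.971% of all 32851 promoters). CCGGAAG, read by ETS factors such as GABP, was in 16 genes (20.8% of entries against 8.86%), and AANATGGC, the YY1 pattern, in 18 genes (24.7% against 6.05%). The STAT pattern TTCNNNGAA was in 5 genes (7.79% of entries against 8.30%). No match of 1 pattern overlapped a match of another in these entries. Upstream stretches with the NRF1 pattern in capitals are shown first, because NRF1 is the classic regulator of respiratory chain genes.
Atp5g2, chr15:102671060-102671109, minus strand: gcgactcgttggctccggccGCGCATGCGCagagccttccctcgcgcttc
Atp5k, chr5:108434420-108434469, minus strand: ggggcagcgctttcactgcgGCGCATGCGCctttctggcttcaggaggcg
Cox6a1, chr5:115349091-115349140, minus strand: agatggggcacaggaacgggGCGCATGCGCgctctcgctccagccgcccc
Ndufa11, chr17:56717682-56717731, plus strand: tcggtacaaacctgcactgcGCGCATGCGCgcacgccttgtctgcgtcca

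The fifth gene with the NRF1 pattern was Uqcrc1. Genes with the STAT pattern are shown with that pattern in capitals, since STAT3 is the gene deleted, and Ndufa8 and Ndufb6 each held a second match farther upstream, and Atp5d a second match past the gene start in 1 of its 2 entries.
Ndufa8, chr2:36049388-36049436, minus strand: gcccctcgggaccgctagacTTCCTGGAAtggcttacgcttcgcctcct
Ndufb6, chr4:40279450-40279498, minus strand: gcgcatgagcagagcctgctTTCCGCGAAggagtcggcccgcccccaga
Atp5d, chr10:80142180-80142228, plus strand: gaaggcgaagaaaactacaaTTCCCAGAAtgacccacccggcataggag
Atp5f1, chr3:105959284-105959332, minus strand: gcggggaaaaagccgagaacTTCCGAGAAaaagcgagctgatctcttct
Atp5o, chr16:91931631-91931674, minus strand: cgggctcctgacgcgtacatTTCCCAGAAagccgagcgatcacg

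A letter match does not show that a factor binds there. The genotype differences of these 5 genes were 0.0090, 0.00061, -0.050, -0.020 and 0.0011 on the log2 scale in the order shown, none with an unadjusted p below 0.05.

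The first comparison asked whether any subunit gene differed between controls and STAT3 KO mice. None of the 82 genes passed the test at an adjusted p of 0.05 (edgeR quasi-likelihood test, Benjamini-Hochberg over 15453 genes), where percent called over all genes was 0, and DESeq2 and limma-voom also called 0 of them. At an unadjusted p below 0.05 there was 1 gene, Ndufv3, or 1.22% of the 82 against 7.66% of all genes (1184), and DESeq2 and limma-voom each gave 2. Without the 3 libraries set apart above, 0 were called and 3 had an unadjusted p below 0.05 (Atp5s, Ndufa9 and Ndufs1, against 13.1% of all genes), and with STAT3 KO 10 left out as well these numbers were 0 and 3 (Cox6c, Ndufs1 and Ndufv3, against 11.2%). The log2 fold change was above 0 in 42 genes and below 0 in 40, with a median of 0.00036 against -0.0011 for all genes (42 and 38, with a median of 0.00058, in the 80 genes without Atp5s and Atp5sl). This balance rested on single libraries and on the fit: 29 genes lay above 0 without STAT3 KO 8 (median -0.021), 30 without STAT3 KO 6 (-0.011), 30 without control 13 (-0.0078), 54 without STAT3 KO 10 (0.015) or STAT3 KO 7 (0.016), and 32 with limma-voom (-0.018). With total counts in place of TMM, 64 lay above 0 (median 0.023, against 0.022 for all genes). In 76 of the 82 genes the 95% interval lay inside a 1.2-fold difference in either direction, against 61.6% of all genes. The other 6 were Atp5k, Atp5l, Cox4i2, Cox6a2, Cox6b2 and Cox7a1. The 82 genes had a median level of 105 CPM against 24.4 for all genes, and a median SE of 0.051 against 0.071. The 2 shares are thus not compared at a like level. No gene of the set had genotypes that did not overlap (0.447% of all genes). Since these are bulk samples, fewer cells of a type and less RNA per cell cannot be told apart, and a difference restricted to serotonergic cells would be diluted by the other cells of the piece.

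**Figure D1:**
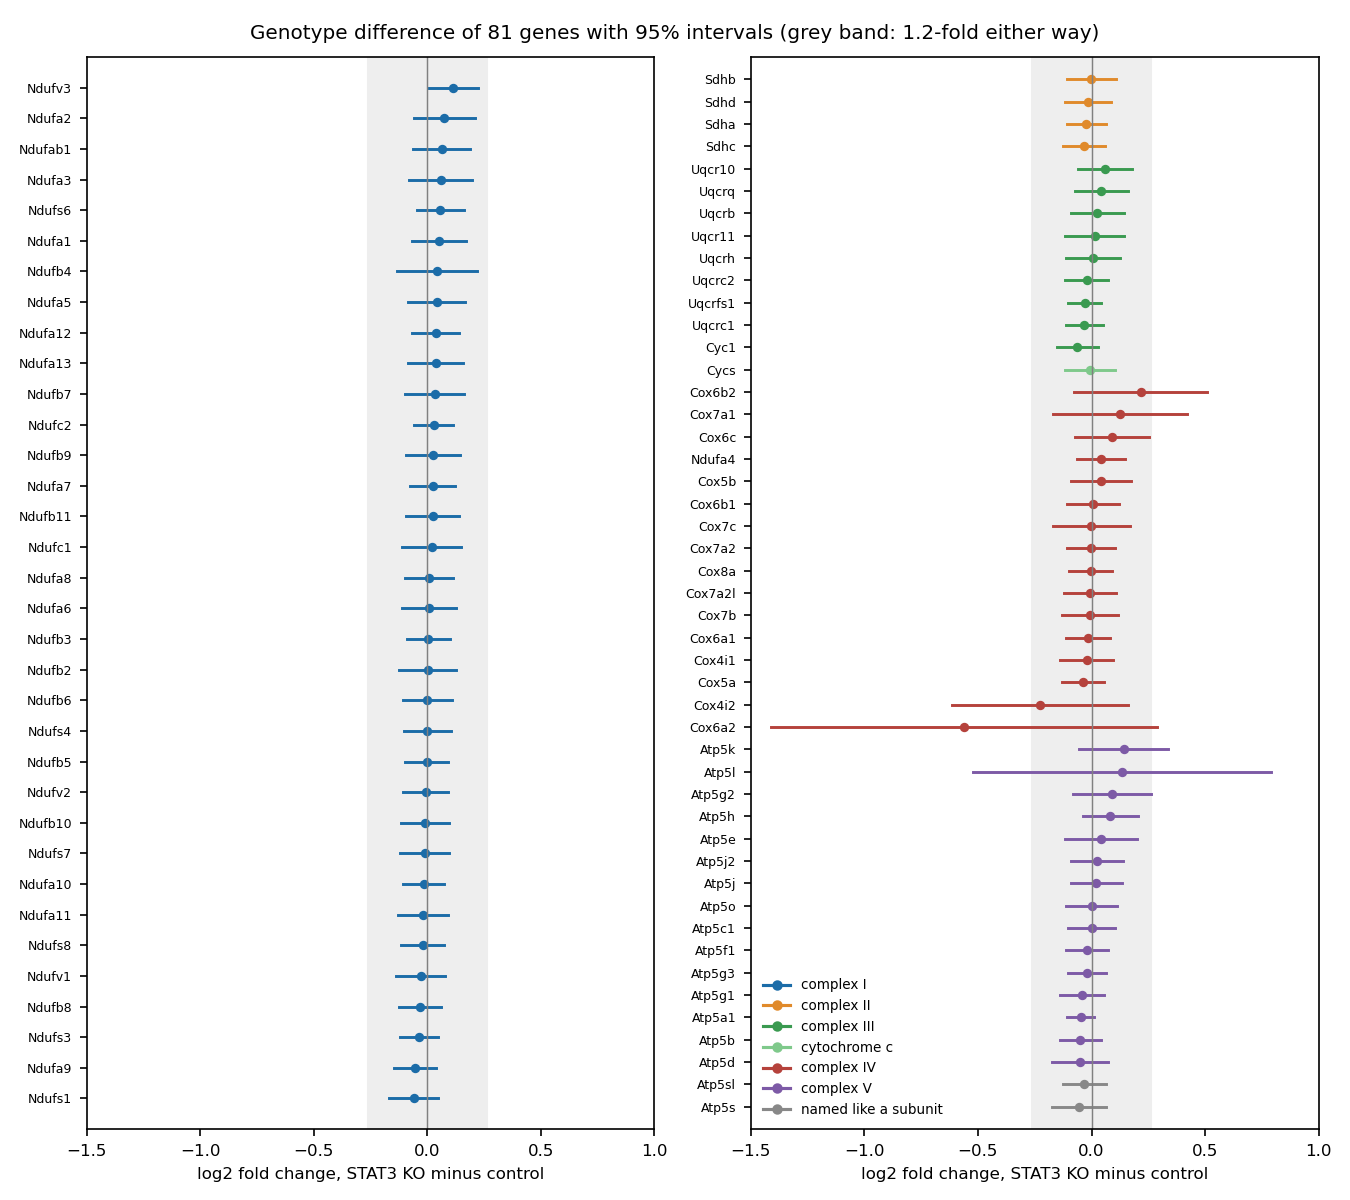
Log2 fold change of STAT3 KO minus control (x axis) for 81 of the 82 genes tested, grouped and coloured by complex, with points at the estimate and bars for the 95% interval (4 controls, 8 STAT3 KO). The grey band marks 1.2-fold in either direction: 75 of the 81 intervals lie within it, and the widest belong to Cox6a2 and Atp5l, the genes with the fewest reads.

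Complex I, the NADH dehydrogenase, is built on 7 core subunits with nuclear genes and a shell of supernumerary ones. Its 35 genes tested had a median log2 fold change of 0.0072, with 22 above 0. All 7 core genes lay below 0, from -0.060 to -0.0073, and 22 of the 28 supernumerary genes lay above 0, with none of either kind called. With 1 library left out, 5 to 7 core genes lay below 0 (5 without control 3, STAT3 KO 10 or STAT3 KO 7) and 15 to 25 supernumerary genes above 0 (15 without STAT3 KO 8 or STAT3 KO 6), and with total counts in place of TMM 3 core genes lay below 0. The principal transcripts of the core genes were longer (median 1623 nt against 747.5 nt), and the part of transcript length in this split was not tested.

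Ndufa13 (chr8:69894180-69902558, GRCm38) encodes GRIM-19. It was read at 123, 135, 131 and 135 CPM in controls 13, 4, 3 and 11, and at 121 to 150 CPM (median 134) in STAT3 KO mice. The control values fell inside the STAT3 KO range, with means of 131 ± 5.77 (SD, n = 4) and 135 ± 10.5 CPM (n = 8). The log2 fold change was 0.036 (SE 0.056, 95% interval -0.084 to 0.16, adjusted p = 0.936), and it ran from 0.0099 without control 13 to 0.056 without STAT3 KO 7. Of the 75-base stretches of its transcripts, 25.6% also occur in Tssk6, which had 3 to 10 counts per library.

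Ndufv3 (chr17:31520115-31531331) encodes a small subunit of the NADH-oxidising module. Its levels were 64.9, 71.0, 66.9 and 69.2 CPM in controls 13, 4, 3 and 11, and 65.8 to 79.6 CPM (median 74.2) in STAT3 KO mice. Of the 8 STAT3 KO animals 5 sat above every control and the other 3 within the control range. The log2 fold change was 0.11 (SE 0.051, 95% interval 0.0059 to 0.22), with an unadjusted p of 0.040, an adjusted p of 0.646 and a two-sided exact permutation p of 0.0586. The unadjusted p was no longer below 0.05 without control 13, control 3, or any 1 of STAT3 KO 16, 8, 6, 15 and 14.

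Ndufs1, the largest subunit, carries iron-sulphur clusters of the electron path and had the largest fall of the complex. It was read at 262, 253, 261 and 266 CPM in controls 13, 4, 3 and 11, and at 238 to 293 CPM (median 243) in STAT3 KO mice. STAT3 KO 8 gave the 293 CPM, above every control, and the other 7 animals lay below every control. The log2 fold change was -0.060 (SE 0.051, adjusted p = 0.848) with all animals and -0.095 without STAT3 KO 8, where its unadjusted p was below 0.05 but the gene was not called. Ndufb9 and Ndufab1, named for their levels per kilobase, differed by 0.025 (SE 0.055) and 0.063 (SE 0.059) on the log2 scale, which became -0.00045 without STAT3 KO 8 and 0.012 without control 13.

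Complex II, succinate dehydrogenase, is the only complex whose subunits are all nuclear. All 4 genes had a log2 fold change below 0, with a median of -0.020 and none called, and with 1 library left out 3 or 4 did (1 with total counts in place of TMM). Sdha, the flavoprotein that oxidises succinate, was read at 784, 770, 778 and 791 CPM in controls 13, 4, 3 and 11, and at 737 to 852 CPM (median 758) in STAT3 KO mice. The controls lay inside the STAT3 KO range (log2 fold change -0.022, SE 0.040). Sdhc, a membrane anchor, had the largest fall (-0.034, SE 0.043), and Sdhb, the iron-sulphur subunit, the smallest difference (-0.00080, SE 0.050).

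Complex III, the cytochrome bc1 complex, and its partner cytochrome c had a median of 0.00056, with 5 of 10 genes above 0. Cyc1, the haem-carrying cytochrome c1, had the largest fall. It was read at 188, 180, 197 and 190 CPM in controls 13, 4, 3 and 11, and at 165 to 190 CPM (median 182) in STAT3 KO mice. The genotypes overlapped (log2 fold change -0.062, SE 0.042, adjusted p = 0.786). Uqcr10 had the largest rise (0.059, SE 0.056, and 0.022 without control 13), and Uqcrh, the hinge protein, stood at 0.0080 (SE 0.056). Cycs, the soluble electron carrier, was read at 45.0 ± 1.26 CPM in controls (n = 4) and 44.8 ± 2.90 CPM in STAT3 KO mice (n = 8).

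Complex IV, cytochrome c oxidase, has subunits with ubiquitous and tissue-restricted isoforms. The 16 genes tested had a median of -0.0039, with 6 above 0, and the ubiquitous forms differed by -0.038 to 0.089. Cox4i1 was read at 549 ± 23.5 and 541 ± 41.1 CPM in controls and STAT3 KO mice, Cox6a1 at 177 ± 6.91 and 175 ± 9.49, Cox7a2 at 146 ± 4.24 and 146 ± 9.71, and Cox8a at 206 ± 9.10 and 205 ± 10.6 (SD, n = 4 and 8). These 4 genes thus differed between genotypes by less than the spread between animals.

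The tissue isoforms were read far lower. Cox6b2, a form best known from testis, had the largest rise of the whole set. It was read at 2.43, 2.84, 2.47 and 2.81 CPM in controls 13, 4, 3 and 11, and at 2.40 to 4.17 CPM (median 2.99) in STAT3 KO mice. STAT3 KO 16 gave the highest value, and the lowest STAT3 KO value was below every control (log2 fold change 0.22, SE 0.14, adjusted p = 0.767). Cox7a1, the muscle form, was read at 3.26 ± 0.234 and 3.55 ± 0.640 CPM, and Cox4i2, a form best known from lung, at 1.72 ± 0.332 and 1.47 ± 0.323 CPM. Cox6a2, the other muscle form, had 4 to 20 counts per library, and its log2 fold change of -0.56 (SE 0.40, 95% interval -1.41 to 0.29) bounds little. Cox8b (0 to 11 counts per library) and Cox7b2 (1 to 10) did not pass the filter, and Cox8c had 0 counts in all 12 libraries.

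Complex V consists of the F1 head with the catalytic sites, the membrane Fo part and the stalks between them. Its 15 genes had a median of 0.0011, with 9 above 0. Atp5b, the catalytic beta subunit, was the most abundant transcript of the set, at 1782, 1792, 1823 and 1758 CPM in controls 13, 4, 3 and 11, and 1621 to 1938 CPM (median 1698) in STAT3 KO mice. STAT3 KO 8 gave the highest of these values. The log2 fold change was -0.050 (SE 0.042, adjusted p = 0.848).

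Atp5a1, the alpha subunit, was the most precisely measured gene of the whole table, with the lowest SE of all 15453 (0.028). It was read at 1241, 1226, 1266 and 1239 CPM in controls 13, 4, 3 and 11, and at 1174 to 1239 CPM (median 1206) in STAT3 KO mice. Of the 8 STAT3 KO animals 7 sat below every control, and STAT3 KO 6, at 1239 CPM, overlapped them. The means were 1243 ± 16.9 (n = 4) and 1203 ± 19.6 CPM (n = 8), and the log2 fold change was -0.047 (95% interval -0.11 to 0.013, edgeR adjusted p = 0.752). The two-sided exact permutation test gave an unadjusted p of 0.0101 for this gene, the only 1 of the 82 below 0.05 by that test (1.22%, against 7.1% of all genes).

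Atp5k, encoding subunit e of the membrane part, had the largest rise of the complex. Its levels were 63.0, 88.1, 89.3 and 75.6 CPM in controls 13, 4, 3 and 11, and 74.4 to 99.0 CPM (median 87.1) in STAT3 KO mice. Control 13 alone lay below all STAT3 KO animals (log2 fold change 0.14, SE 0.092, adjusted p = 0.773), and without it the value was 0.051. Atp5d had the largest fall by a narrow margin (-0.050, SE 0.058). The 3 genes for the c ring, Atp5g1, Atp5g2 and Atp5g3, encode an identical mature protein and differed by -0.043, 0.090 and -0.021 (SE 0.045, 0.081 and 0.039), of which the 0.090 of Atp5g2 became 0.026 without control 13. Atp5s and Atp5sl, which are not subunits, differed by -0.056 and -0.032.

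**Figure D2:**
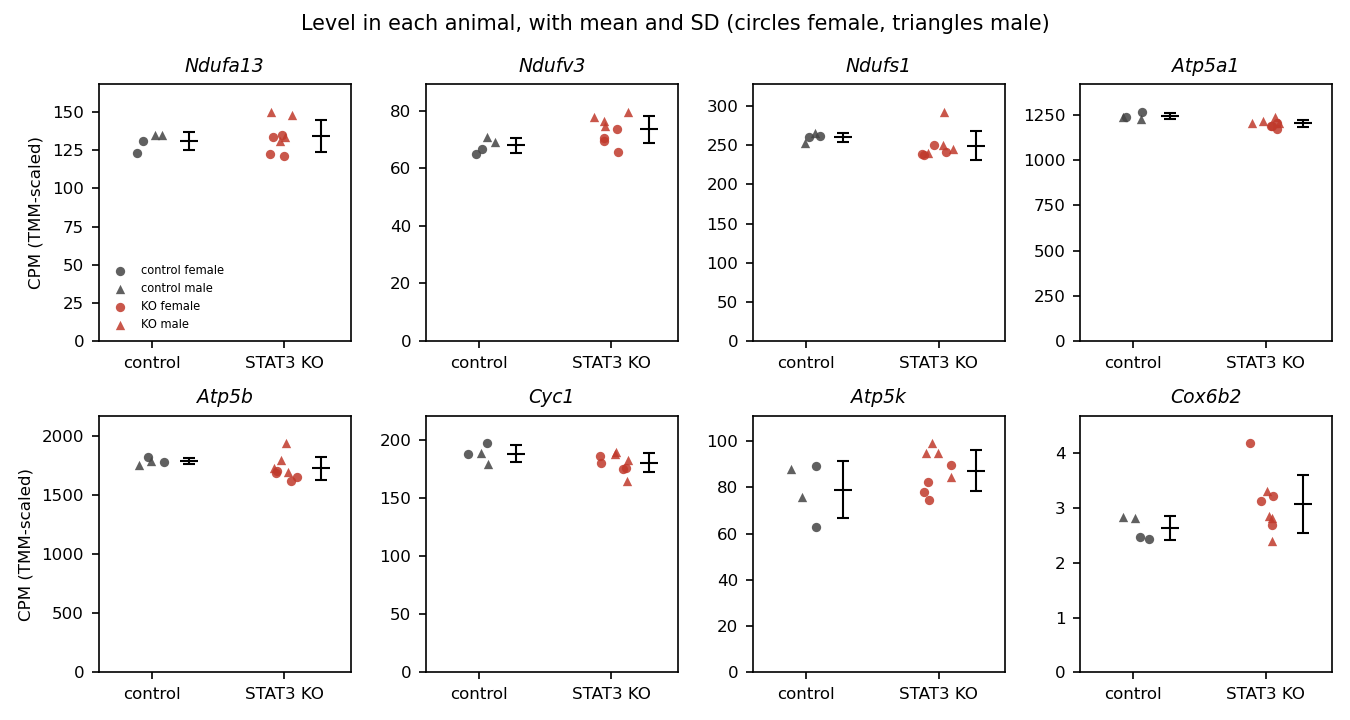
CPM (y axis, from 0) of 8 single genes in each animal, controls in grey and STAT3 KO in red, females as circles and males as triangles, with the mean and SD beside each group (n = 4 and 8). The genotypes overlap in every panel, and single animals stand out, such as STAT3 KO 8 for Ndufs1 (293 CPM) and control 13 for Atp5k (63.0 CPM).

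Levels were compared between genes only per kilobase of transcript, as CPM divided by the length of the principal transcript, a length chosen after the data were seen because merging all annotated exons counts retained introns. Medians were 113 CPM per kilobase in complex I, 112 in complex II, 147.5 in complex III with cytochrome c, 199 in complex IV and 220 in complex V. With all annotated exons merged they were 70.5, 78.8, 86.96, 108 and 74.5, so complex V moved from the highest median to the second lowest and the order of the complexes depends on the length used. Atp5b stood highest (912), then Cox4i1 (730), Atp5g3 (500) and Atp5a1 (492). With all exons merged these became 413, 351, 164 and 388, so the order of Cox4i1, Atp5g3 and Atp5a1 depends on the length used. Among the complex I genes tested, Ndufb8 was highest on principal transcripts (261) and Ndufb9 on merged exons (162), while Ndufab1 was lowest on both (13.4 and 2.76).

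Within the isoform pairs the ubiquitous form was far above the other on either length. On principal transcripts Cox4i1 stood at 730 against 2.14 CPM per kilobase for Cox4i2, Cox6a1 at 308 against 0.516 for Cox6a2, Cox7a2 at 222 against 8.79 for Cox7a1, and Cox8a at 373 against 0.510 for Cox8b. Among the c ring genes Atp5g3 (500) stood above Atp5g1 (108) and Atp5g2 (27.7). Cycs was low for its pathway (14.4), and 26.1% of the 75-base stretches of its transcripts also occur in other genes.

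Atp5l, subunit g of the synthase, and Ndufs5, a complex I subunit, stood apart from their complexes. Atp5l had 8 to 32 counts per library (1.36 CPM per kilobase), and 3.51% of its 75-base stretches occur in other genes. Ndufs5 was listed at 0 in all 12 libraries, a floor of 0.101 to 0.123 CPM, and shares 24.1% of its stretches with BC002163, which had 54 to 83 counts. How the counting treated reads that fit several genes is not given in the sources used here, so these 2 values and those of the other members that share stretches (18 of the 86 genes share over 10%) are uncertain as levels.

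**Figure D3:**
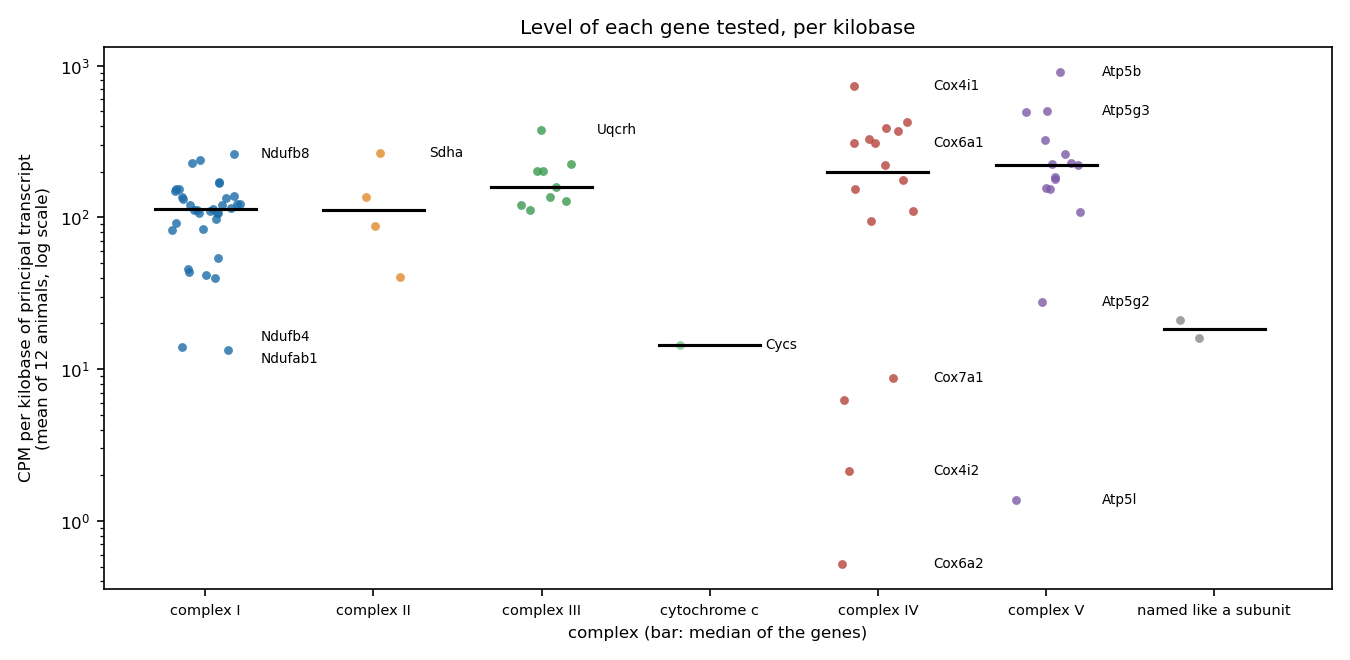
Mean CPM per kilobase of principal transcript over 12 animals (y axis, log scale) for each of the 82 genes tested, by complex, with a bar at each median. Atp5b stands highest (912), and Cox6a2, Atp5l, Cox4i2, Cox6b2 and Cox7a1 lie below 10. Cytochrome c has its own column.

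Animals of 1 genotype differed from each other by more than the genotypes did, and alike in all complexes. For each gene the deviation of an animal's log2 CPM from the mean of the 12 animals was taken, and the median over the 82 genes was -0.036, 0.013, 0.037 and 0.00032 in controls 13, 4, 3 and 11. In STAT3 KO mice it ranged from -0.113 to 0.142, with a median of 0.0045. STAT3 KO 8 (0.142) and STAT3 KO 6 (0.088) were high, with 69 and 75 of the 82 genes above their mean. STAT3 KO 7 (-0.113) and STAT3 KO 10 (-0.096) were low, with 1 and 4 genes above it. Over all genes tested, 7483 to 8100 of 15453 lay above their mean in an animal.

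The order of these 4 animals held in each complex. In STAT3 KO 8 the medians were 0.140, 0.143, 0.137, 0.147 and 0.150 for complexes I to V, and in STAT3 KO 7 they were -0.116, -0.068, -0.094, -0.123 and -0.102. The share of all counts on the 86 genes was 1.37 to 1.41% in controls and 1.31 to 1.51% in STAT3 KO mice. The spread of single genes was nevertheless small, with a median SD of log2 CPM of 0.085 over 12 animals against 0.118 for all genes, at a median level of 105 against 24.4 CPM.

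**Figure D4:**
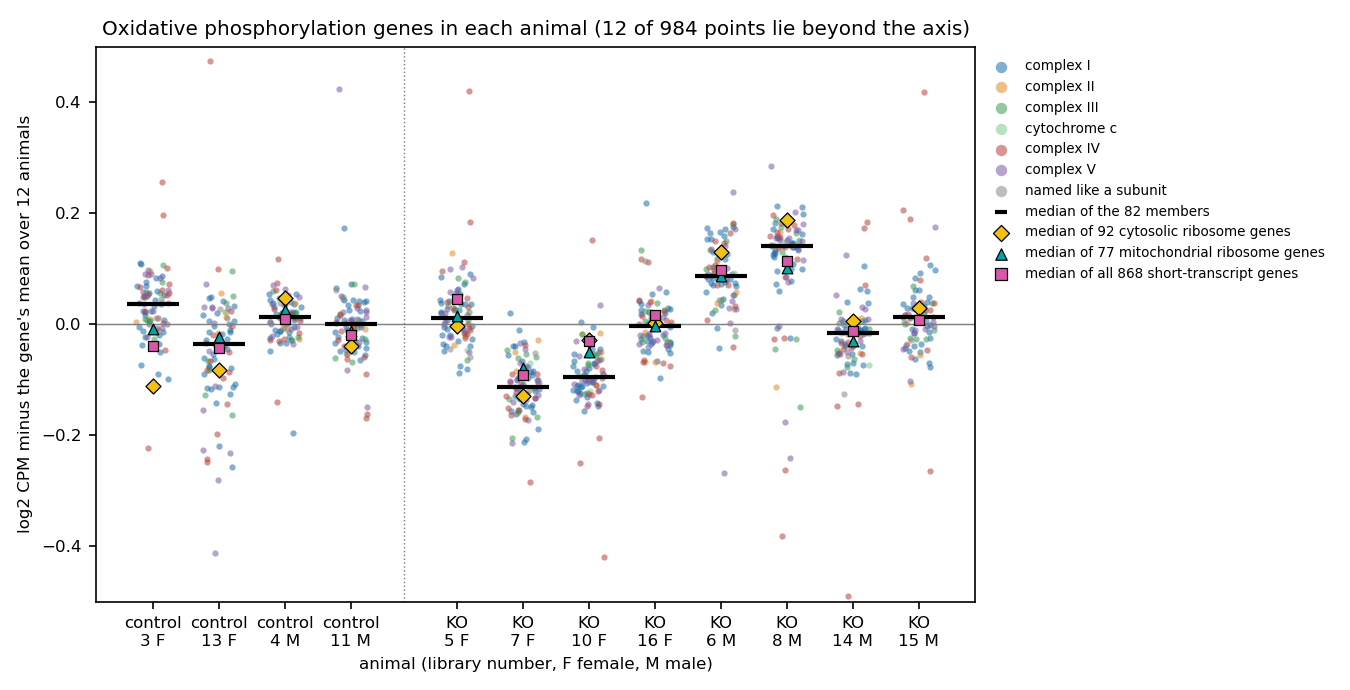
Deviation of log2 CPM from the mean of 12 animals (y axis) for the 82 genes in each animal (x axis), coloured by complex, with a black bar at their median and symbols at the medians of 3 other gene sets. STAT3 KO 8 and 6 lie above 0, and STAT3 KO 7 and 10 below it, in every complex, and the other sets follow in 3 of these animals more than in STAT3 KO 10.

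Other transcripts moved in these animals too. The median deviation of the 92 cytosolic ribosome genes was 0.188 in STAT3 KO 8, 0.131 in STAT3 KO 6 and -0.129 in STAT3 KO 7, but -0.029 in STAT3 KO 10 and -0.111 in control 3, where the 82 genes stood at -0.096 and 0.037. The 77 mitochondrial ribosome genes gave 0.102, 0.086, -0.079 and -0.050 in STAT3 KO 8, 6, 7 and 10. The 868 genes of any function with a principal transcript under 1000 nt gave 0.114, 0.098, -0.091 and -0.030. Transcripts of the 82 genes are mostly short, with a median of 786 nt against 2906 nt, yet the 29 subunit genes of 1000 nt or more gave 0.142, 0.058, -0.076 and -0.085, and all 13759 genes of that length gave 0.0033, -0.00063, -0.00099 and 0.0028. Neuron markers summed to 6039 CPM in STAT3 KO 8, and 5753, 5643 and 5343 in STAT3 KO 6, 7 and 10, within or just below the 5460 to 6060 of the other animals. Oligodendrocyte markers were highest in STAT3 KO 8 (16037 CPM) and lowest in STAT3 KO 6 and 7 (11889 and 12003). The part of transcript length and cell composition in these differences was not tested.

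The length split also showed in the genotype comparison, although the split was chosen after the data were seen. Among the 51 subunit genes with a principal transcript under 1000 nt, 35 had a log2 fold change above 0 (median 0.021), against 7 of the 29 longer ones (median -0.017, without Atp5s and Atp5sl). Without control 13 these numbers were 22 of 51 (median -0.0076) and 8 of 29 (-0.0100), and without STAT3 KO 8 they were 24 (-0.00045) and 5 (-0.030), so the split rested on control 13 and was smaller without STAT3 KO 8. Over all genes tested, 630 of the 868 short ones were above 0 (median 0.046) and 6542 of 13759 long ones (median -0.0045). The median of the short ones was 0.035 to 0.058 with 1 library left out, and 0.046 without control 13.

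The genotype difference was then taken within each sex and compared between the sexes, in 2 controls and 4 STAT3 KO mice of each. In females 59 of the 82 genes were lower in STAT3 KO (median -0.048), and in males 67 of 82 were higher (median 0.046). The interaction of genotype and sex, male minus female, was called for 0 genes (percent called over all genes 0), and 0 of the 82 had an unadjusted p below 0.05, against 848 genes (5.49%) of the whole table. DESeq2 called 1 gene for the interaction, which was not among the 82. With 1 library left out, 0 to 3 of the 82 had an unadjusted p below 0.05 (3 without STAT3 KO 14, Atp5o, Cox7b and Ndufb9, against 6.35% of all genes) and 0 were called, while 0 to 37 genes of the whole table were called (37 without control 11). The interaction was above 0 in 73 of 82 genes (89.0%, against 7730 of all 15453 genes), with a median of 0.088 against 0.000078 (61 to 78 genes with 1 library left out, the fewest without control 3), and in 71 of the 80 genes without Atp5s and Atp5sl.

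Ndufb9, with the lowest p of the interaction, gives the pattern for 1 gene. It was read at 165 and 166 CPM in female controls 13 and 3, 167 and 162 CPM in male controls 4 and 11, and 151 to 189 CPM over the STAT3 KO mice. Its interaction was 0.17 (SE 0.089, unadjusted p = 0.0804, adjusted p = 0.927). The STAT3 KO animals with the highest medians, 8 and 6, were both males, and those with the lowest, 7 and 10, both females. The genes move together within an animal, so their shared sign is not 82 separate results. The median interaction was 0.124 without control 13, 0.050 without control 3 and 0.092 without the 3 libraries set apart above (0.076 without STAT3 KO 10 as well), and other lists also lay above 0: 0.078 for 13 TCA cycle enzymes, 0.059 for 45 assembly factors, 0.041 for the mitochondrial ribosome and 0.012 for the cytosolic ribosome. Cell type markers, 6 genes a list, moved in the same comparison too, in 8 of 10 lists by more than the 82 genes. Their median interaction was 0.331 for pericytes and smooth muscle (6 of 6 above 0), 0.265 for endothelial cells (5 of 6), 0.190 for oligodendrocytes (6 of 6), 0.061 for neurons (4 of 6) and 0.046 for microglia (3 of 6). It was -0.206 for serotonergic neurons (0 of 6), -0.221 for astrocytes (1 of 6), -0.944 for cerebellar neurons (1 of 6), -0.262 for choroid plexus (1 of 5 tested) and -2.36 for forebrain neurons (0 of 6, all 6 with an unadjusted p below 0.05), whose genes were highest in the male control 4. The part of cell composition in the sex difference of the subunit genes was not tested.

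**Figure D5:**
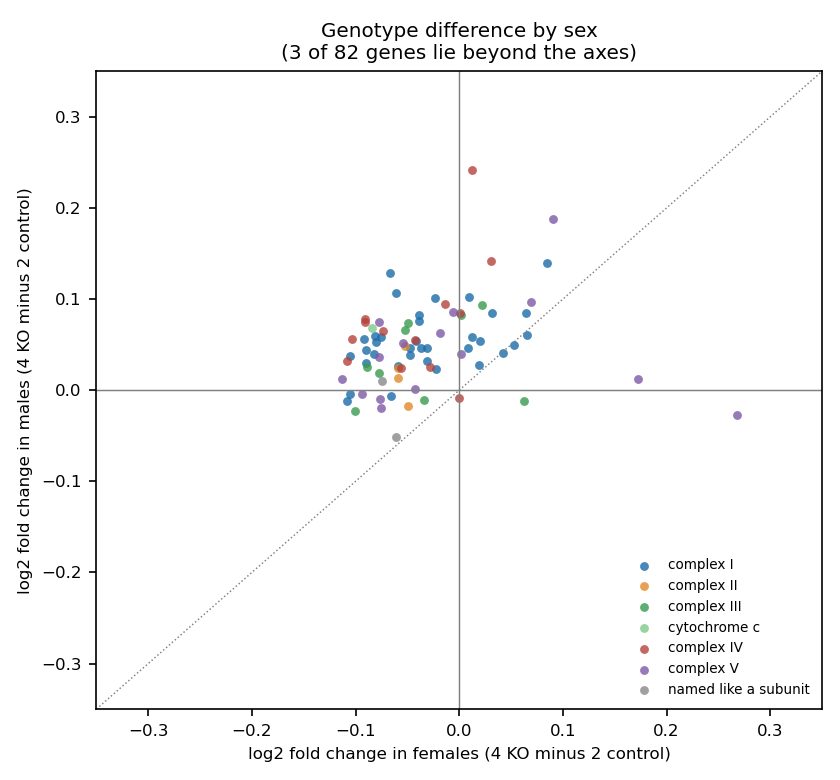
Log2 fold change of STAT3 KO minus control in males (y axis) against that in females (x axis) for the genes tested, coloured by complex, with a dotted line where both are equal. Of the 82 genes 73 lie above the line by the interaction estimate, and 3 (Cox6b2, Cox4i2 and Cox6a2) fall beyond the axes.

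Genes that build, regulate or feed the respiratory chain were read from the same test, with 0 called in every list. Of 45 assembly factors, Surf1, which assembles complex IV, had a log2 fold change of 0.087 (SE 0.038, unadjusted p = 0.0373, adjusted p = 0.642), and Atpaf1, which assembles the F1 head, -0.17 (SE 0.071, unadjusted p = 0.0289, adjusted p = 0.620). They were the only 2 of that list with an unadjusted p below 0.05 (4.44%, against 7.66% of all genes). Of 12 biogenesis regulators, Ppargc1a, the coactivator PGC-1alpha, was read at 79.4 ± 7.54 CPM in controls and 69.6 ± 7.07 in STAT3 KO mice (log2 fold change -0.19, SE 0.077, unadjusted p = 0.0252, adjusted p = 0.615). Esrra, the nuclear receptor ERRalpha that works with it, stood at -0.15 (SE 0.076). Ppargc1a was the only 1 of the 12 with an unadjusted p below 0.05 (8.33%, against 7.66% of all genes). Of the 12 regulators 5 lay above 0, and their median was -0.019.

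No TCA cycle enzyme had an unadjusted p below 0.05. Of the 13 tested, 11 were below 0, with a median of -0.051, and the lowest p values belonged to Dld (-0.075, SE 0.044) and Dlst (-0.063, SE 0.042), which share the 2-oxoglutarate dehydrogenase complex. Of 13 other mitochondrial membrane and matrix proteins 10 were below 0 (median -0.027), led by Tomm20 and Chchd3. The mitochondrial ribosome had 0 of 77 genes with an unadjusted p below 0.05 and a median of 0.0086, and the cytosolic ribosome 10 of 92, all higher, with a median of 0.077. These 10 are 10.9% of their list, against 7.66% of all genes and 8.76% of the 868 genes with a principal transcript under 1000 nt, where 69 were higher and 7 lower.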

How the data were processed

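The authors sequenced DR RNA of each animal with NEBNext Ultra II libraries and mapped the reads to mm10 with STAR 2.5.0b, per the labels. The deposited files hold raw counts per gene symbol, without normalisation. The counter, its annotation and its use of strand are not given in the sources used here. Reads under no single gene (13.9 to 15.8% of a library) were left out. Python was 3.11.15 and matplotlib 3.10.9. DESeq2 (1.42.0), limma (3.58.1) and edgeR (4.0.16) ran in R 4.3.3. Genes were filtered with filterByExpr (10 counts, 15 in total), scaled by TMM and tested with edgeR's quasi-likelihood test (two-sided, Benjamini-Hochberg, threshold 0.05). Log2 CPM used a prior count of 2. SE is the log2 fold change over the root of the test statistic. The permutation test took all 495 splits into 4 and 8 animals (smallest p 0.00202). Over 66 pairs of libraries, counts differed by more than sampling noise.

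Genes were named by rule: Ndufa13, the 3 lowest p values, the extremes of each complex in change and level, isoform sets and c ring genes. The 2 lowest p values of the other pathway lists, the ribosomes aside, were named too. Some of these genes are given in every control, and others only by group, log2 fold change, level or name. Values of Ndufb8 were added after they were seen. Gene and pathway lists were chosen with earlier results of these data known. Transcript lengths are GENCODE vM21's (GRCm38), and shared stretches are 75 bases, the read length. The alternatives were DESeq2, limma-voom with quality weights, other scalings and filters, sex as a covariate and leaving out each library. Fits were tested on simulated data with 200 changed genes. Libraries stand for separate animals. The values of 1 subunit gene are not reported here, but it stays in the counts and tests.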

Additional observations from a re-analysis of the deposited data

Results flagged for a closer look

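One value lay far from the rest of its group by Dixon's criterion. Ndufs1 stood at a log2 CPM of 8.19 in STAT3 KO 8, while the other 7 STAT3 KO animals lay between 7.89 and 7.97, and the gap made up 0.739 of the group's range. In all, 68 groups of values of single genes and complex medians were examined, and chance flags about 1 in 20 such groups, or 3.4 of them.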

How the results depend on the processing

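No gene of the set was called for genotype, or for genotype by sex, under any alternative run, and the count of intervals inside 1.2-fold stayed at 74 to 77. For genotype, genes called over the whole table rose from 0 to 4 with DESeq2, 0 to 1 when 1 library was left out (1 without control 4), and 2 when control 4, STAT3 KO 8 and STAT3 KO 16 were left out together, an alternative chosen after seeing the data, as was leaving out STAT3 KO 10 too (0 called). For genotype by sex they were 1 with DESeq2, 0 to 37 with 1 library left out (37 without control 11) and 0 without those 3 or 4 libraries. Of the 82 genes, those with an unadjusted p below 0.05 for genotype numbered 2 with DESeq2 (Ndufv3, Atp5a1, against 7.70% of all genes) and 2 with limma-voom (Ndufv3, Ndufs1, against 10.4%), 0 to 3 with 1 library left out (3 without STAT3 KO 8, Atp5b, Ndufa9 and Ndufs1, against 10.8%), and 3 without those 3 libraries (Atp5s, which is no subunit, Ndufa9 and Ndufs1, against 13.1%) or those 4 (Cox6c, Ndufs1, Ndufv3, against 11.2%). For genotype by sex they numbered 0 to 3 with 1 library left out (3 without STAT3 KO 14, against 6.35% of all genes), 1 without the 3 and 2 without the 4 libraries (against 6.55% and 5.12%).

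Most signs that turned belonged to differences near 0, and the exception was Atp5l (0.13, SE 0.31), which turned without control 13 or control 4. With total counts in place of TMM, which moved the median of all genes to 0.022, Atp5g3 became 0.0022, Cox4i1 0.00091, Cox6a1 0.0077, Cox7a2 0.019, Cox8a 0.019, Cycs 0.016, Sdha 0.00030 and Sdhb 0.022. Sdhb became 0.00022 with DESeq2, 0.00026 with RLE, 0.0016 without the filter and 0.0021 with the stricter one, and Uqcrh -0.010 with limma-voom. Without the 3 libraries Atp5l became -0.11, Sdhb 0.00090 and Uqcrh -0.017, and without the 4 Atp5l became -0.074, Cox4i1 0.0070, Sdhb 0.0052 and Uqcrh -0.0021. With 1 library left out, values ran from -0.084 to 0.43 for Atp5l, -0.021 to 0.022 for Sdhb, -0.029 to 0.0095 for Cycs, -0.019 to 0.032 for Uqcrh, -0.030 to 0.017 for Cox8a, -0.037 to 0.0063 for Cox6a1, -0.026 to 0.019 for Cox7a2 and -0.00045 to 0.045 for Ndufb9. No paired analysis was possible, because the litters of the animals are not given in the sources used here and library numbers pair no animals. Leaving out 1 library moved the value by over 1.5 times, or turned it, in 25 of the 28 genes named by rule and tested, and not in Atp5a1, Atp5b and Ndufv3. Control 13 did so for Atp5g2, Atp5k, Cox4i2, Ndufa13, Ndufab1 and Uqcr10 among others. The median of the 82 genes, 0.00036, ran from -0.021 without STAT3 KO 8 to 0.016 without STAT3 KO 7, and was 0.023 with total counts in place of TMM. For most subunit genes the intervals still leave room for changes under 1.2-fold.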
